A study of Mus musculus with 7 samples.

Results

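The genes described here are 9 early lymphoid genes, Satb1, Ikzf1, Flt3, Il7r, Dntt, Rag1, Ighm, Blnk and Ly6d, measured in long-term haematopoietic stem cells (LT-HSCs) of the mouse. They were taken by name from a list of genes of early lymphoid development, chosen with earlier results of these data known. The shares of all genes given below are therefore a background and not a test of these genes. All 9 were found among the 34932 annotated genes with a quantified transcript. The cells came from bone marrow and were sorted by flow cytometry for Sca-1, cKit and CD150 on the surface and for the absence of lineage antigens and of CD48. The study compared 4 libraries labelled B4galt1 KO (genotype B4-/-, a full knockout of the galactosyltransferase gene B4galt1) with 3 libraries labelled B4galt1 WT. The labels place both groups on a 129S1 and C57Bl/6 background and name no treatment. The labels do not say that replicates are separate animals, so the p-values rest on the spread of the libraries alone, which may be technical.

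Blood stem cells give rise to lymphocytes through multipotent progenitors that begin to transcribe lymphoid genes at a low level, a step called lymphoid priming. Flt3, a receptor tyrosine kinase, and the chromatin organiser SATB1 mark this step. It is followed by terminal deoxynucleotidyl transferase (Dntt), the recombinase subunit RAG1 and the interleukin 7 receptor in common lymphoid progenitors, and by Ighm, Blnk and Ly6d along the B-cell path. LT-HSCs sorted by CD150 and CD48 are known to lie above this branch point and to express most of these genes weakly or not at all.

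The libraries held 23508985 to 34941390 estimated reads. B4galt1 itself was at 19.3, 14.9, 14.8 and 14.6 CPM, read counts scaled to library size, in the 4 libraries labelled KO and at 19.2, 24.4 and 11.3 CPM in the 3 WT libraries, in order of replicate number here and below. Its log2 fold change of -0.20 (SE 0.270, edgeR adjusted p = 0.758) left the label unchecked by RNA level, so each direction below rests on the labels. KO replicate 4 and WT replicate 3 lacked male-pattern expression of Y-linked genes, with a sum of 4 such genes of 11.6 and 5.92 CPM against 232.4 to 381.7 CPM in the other 5 libraries. The library kit does not mark strand, so reads from a gene and an overlapping gene on the other strand cannot be told apart.

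Of the 9 genes, 7 passed the filter on low counts and were tested, and Satb1 rose in the libraries labelled KO. It was the 1 gene called higher, and 0 were called lower (edgeR quasi-likelihood test, Benjamini-Hochberg adjusted p below 0.05 over all 14695 genes tested). The same test called 2.26% of all tested genes, 0.599% higher and 1.66% lower. In bulk libraries, more cells of a type and more RNA per cell cannot be told apart. Satb1, Flt3 and Dntt had every library labelled KO above every WT library, a separation in this direction that 8.23% of all tested genes showed. Flt3, Dntt, Il7r and Ighm had higher means in the libraries labelled KO but did not pass the test, and their unadjusted p was below 0.05. The share of all tested genes below that level was not counted, so such counts, here and for the lists below, have no background. Ikzf1 and Blnk had log2 fold changes of -0.26 and -0.07. Rag1 and Ly6d, the genes not tested, had 0 reads in all 4 libraries labelled KO. Il7r and Dntt had 146 and 337 reads over the libraries labelled KO and 19 and 17 over WT, so their passing the filter rests mainly on the KO group. The plot of CPM by library shows the 7 values of each gene.

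**Figure D1:**
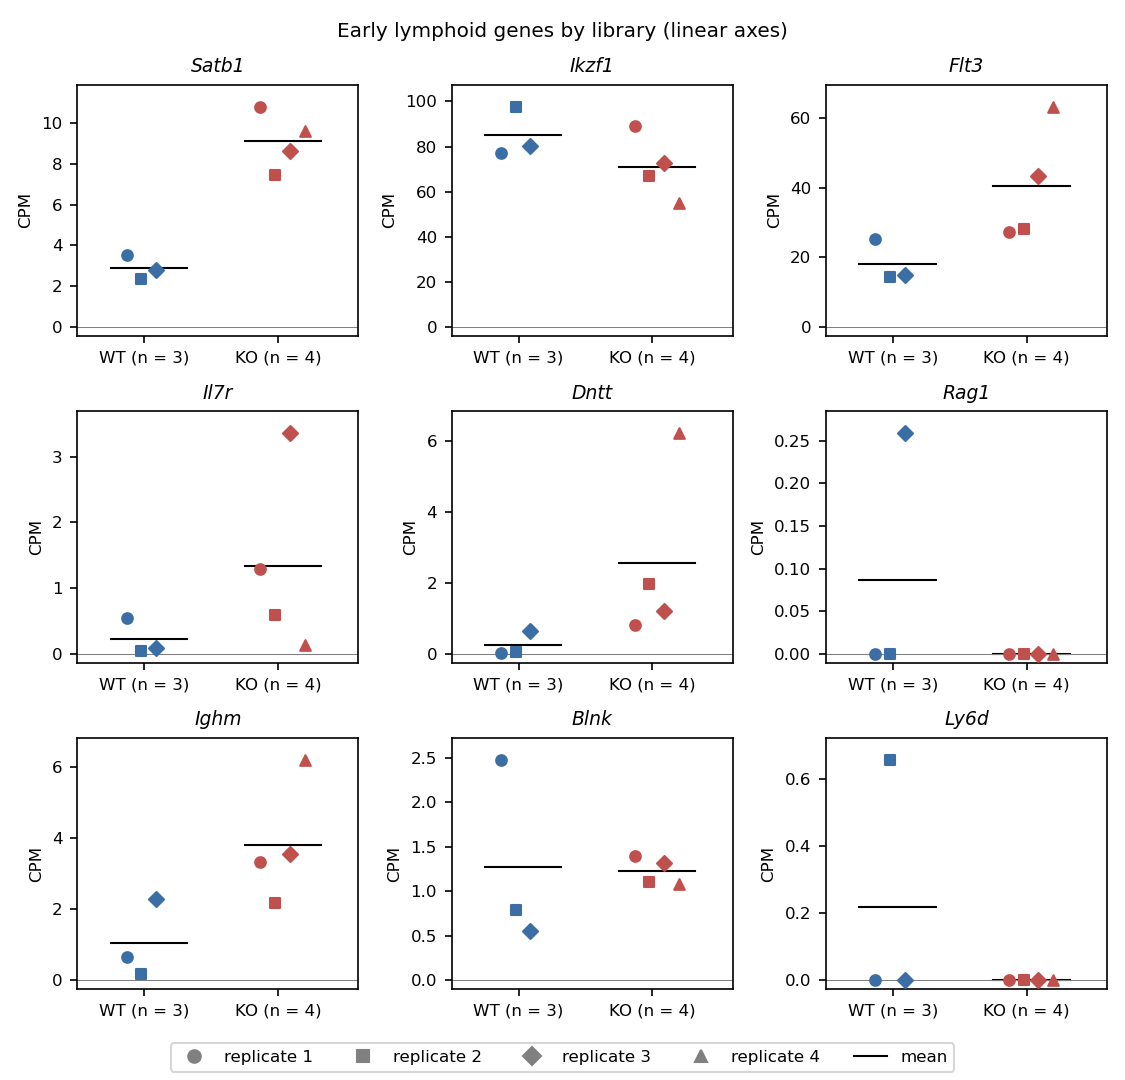
CPM of the 9 early lymphoid genes (linear y axes, each with its own scale) in the 3 WT and 4 KO libraries, with the marker shape giving the replicate number and a line at the group mean. Satb1 lies at 7.47 to 10.8 CPM in the KO group and at 2.34 to 3.53 CPM in WT, while Rag1 and Ly6d have reads in 1 WT library each.

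The start regions of the 3 genes whose groups did not overlap are printed from the RefSeq table of GRCm38.p6, in which 7 of the 9 genes matched by symbol. Each window runs from 250 bases before to 50 after an annotated start, 5′ to 3′ on the strand of the gene. Capitals mark TGGGA, the core that Ikaros, the protein of Ikzf1, recognises, on either strand. Both Satb1 windows lie on the minus strand, at chr17:51833241-51833540 and chr17:51832598-51832897. The Flt3 window lies on the minus strand at chr5:147400440-147400739, and the Dntt window on the plus strand at chr19:41029025-41029324.
Satb1, start at 51833290: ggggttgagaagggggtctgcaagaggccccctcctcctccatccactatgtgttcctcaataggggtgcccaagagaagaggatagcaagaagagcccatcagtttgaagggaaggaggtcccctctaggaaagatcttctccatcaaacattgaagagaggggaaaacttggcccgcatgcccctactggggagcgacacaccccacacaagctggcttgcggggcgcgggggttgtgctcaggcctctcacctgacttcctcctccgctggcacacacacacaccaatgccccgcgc
Satb1, start at 51832647: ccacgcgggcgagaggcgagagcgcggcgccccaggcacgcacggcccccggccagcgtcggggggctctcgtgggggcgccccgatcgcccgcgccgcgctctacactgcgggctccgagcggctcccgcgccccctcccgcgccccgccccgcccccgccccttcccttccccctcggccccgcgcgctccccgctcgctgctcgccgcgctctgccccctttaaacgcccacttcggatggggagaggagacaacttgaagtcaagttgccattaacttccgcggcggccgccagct
Flt3, start at 147400489: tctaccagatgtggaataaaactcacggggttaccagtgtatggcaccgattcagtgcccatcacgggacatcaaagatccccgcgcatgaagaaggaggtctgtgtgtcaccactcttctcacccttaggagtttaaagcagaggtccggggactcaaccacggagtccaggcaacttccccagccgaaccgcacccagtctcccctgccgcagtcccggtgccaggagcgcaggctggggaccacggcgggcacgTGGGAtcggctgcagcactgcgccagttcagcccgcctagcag
Dntt, start at 41029275: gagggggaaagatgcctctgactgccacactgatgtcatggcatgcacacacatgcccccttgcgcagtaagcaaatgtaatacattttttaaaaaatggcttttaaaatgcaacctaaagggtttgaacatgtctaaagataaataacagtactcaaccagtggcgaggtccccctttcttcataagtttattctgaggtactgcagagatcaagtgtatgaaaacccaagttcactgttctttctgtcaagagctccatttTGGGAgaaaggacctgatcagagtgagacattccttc

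The Flt3 and Dntt windows held 1 TGGGA each, 7 and 13 bases after the start, and the Satb1 windows held 0. Of all 32851 windows of this length, 61.6% held this core on either strand. The motifs were searched separately and can share bases. The ETS core GGAA, on either strand, occurred 5 and 3 times in the Satb1 windows, 2 times in Flt3 and 2 times in Dntt, and in 96% of all windows. CANNTG, the E-box bound by E proteins, occurred 1 and 0 times in the Satb1 windows, 2 times in Flt3 and 3 times in Dntt, and in 72.3% of all windows. TGTGGT, a RUNX site, occurred in 0 of the 4 windows and in 16.8% of all windows. The GC content was 59% and 76.7% in the Satb1 windows, 61% in Flt3 and 42.3% in Dntt. These matches are descriptions of the letters.

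Among the transcription regulators, Satb1 (ENSMUSG00000023927, GRCm38 chromosome 17, 51736187 to 51833290, minus strand) encodes a chromatin organiser that brings distant lymphoid loci together and is needed for lymphoid potential in stem cells. Its level was 10.8, 7.47, 8.63 and 9.62 CPM under the KO label and 3.53, 2.34 and 2.80 CPM under the WT label. The lowest library labelled KO thus lay above the highest WT library. The means were 9.13 ± 1.42 CPM (SD, n = 4) and 2.89 ± 0.60 CPM (SD, n = 3), a log2 fold change of 1.65 (SE 0.302, 95% interval 0.99 to 2.32, edgeR adjusted p = 0.0173). The call was lost without KO replicate 1 (adjusted p = 0.0511), KO replicate 3 (0.0604), WT replicate 2 (0.0627) or WT replicate 3 (0.0712), with a value of 1.5 to 1.81 over all 7 omissions. Among the 5 libraries with the Y-linked pattern it was 1.61 and did not pass (edgeR adjusted p = 0.0669).

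The estimated Satb1 reads fell mostly on transcripts that begin at or near the starts of the windows printed above. Satb1-204 begins at 51833290 and took 30%, 34.8%, 61.1% and 55% of the gene's reads under the KO label, and 34.3%, 0% and 69.7% under the WT label. Satb1-208 begins at 51832672 and took 48.4%, 39.8%, 28% and 17.6% in the KO group and 49.9%, 83.3% and 22.6% in WT. The share of the most abundant transcript, Satb1-204, differed by 10.56 percentage points and did not separate the groups (two-sided exact permutation test, p = 0.686, adjusted over 3 genes p = 0.686). Without WT replicate 2 this difference turned to -6.78 points. WT replicate 2 had 50 Satb1 reads in all, so its division among 14 annotated transcripts rests on few reads. In KO replicate 4 a further 80.6 estimated reads fell on Satb1-203, which begins at 51826566 and had 0 in the other 6 libraries.

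Ikzf1 (ENSMUSG00000018654, chromosome 11, 11685003 to 11772926, plus strand) encodes Ikaros, a zinc finger factor needed from the start of lymphoid development and already present in stem cells. It was at 89.0, 67.0, 72.8 and 55.2 CPM under the KO label and at 77.1, 97.7 and 80.1 CPM under the WT label, and the groups overlapped. The log2 fold change of -0.26 (SE 0.186, 95% interval -0.67 to 0.15) did not pass (edgeR adjusted p = 0.549). Its sign turned to 0.19 on the log2(TPM + 1) scale (limma adjusted p = 0.57), where TPM is the deposited level scaled for library size and transcript length. The mean was 20.2 ± 1.80 TPM (SD, n = 4) in the KO group and 17.5 ± 1.91 TPM (SD, n = 3) in WT.

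The shares of the main Ikzf1 transcripts did not overlap between the groups, and the difference did not pass after adjustment. Ikzf1-204, of 5163 nt and beginning at 11686213, took 77.4%, 74.3%, 67.7% and 76.2% of the gene's estimated reads under the KO label and 90.4%, 87.2% and 86.4% under the WT label. Every library labelled KO lay below every WT library. The difference of -14.08 percentage points (73.9 ± 4.32 against 88 ± 2.07, SD, n = 4 and n = 3) had a p of 0.0571 (two-sided exact permutation test, adjusted over 3 genes p = 0.171). This p doubles the smaller tail over the 35 splits and is the smallest that this form of the test can give. Counting the splits with an absolute difference at least as large, a form added after seeing the data, gave 0.0286 (exact permutation test, adjusted over 3 genes p = 0.0857). Ikzf1-203, of 4697 nt and beginning at 11685925, took 19.8%, 21.2%, 28.4% and 16.9% in the KO group and 7.27%, 12.7% and 11% in WT, without overlap. These transcripts hold most of the gene's reads, so the higher share of Ikzf1-203 largely restates the lower share of Ikzf1-204. Across the 10198 genes with at least 20 estimated reads in every library and more than 1 transcript, the share of the most abundant transcript was below WT without overlap in 14.2% and above in 2.53%, with a median difference of -1.29 points. The read-weighted mean length of the quantified transcripts was 2163 to 2347 nt in the KO group and 2080 to 2186 nt in WT. The part of these general differences in the Ikzf1 shares was not tested.

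**Figure D2:**
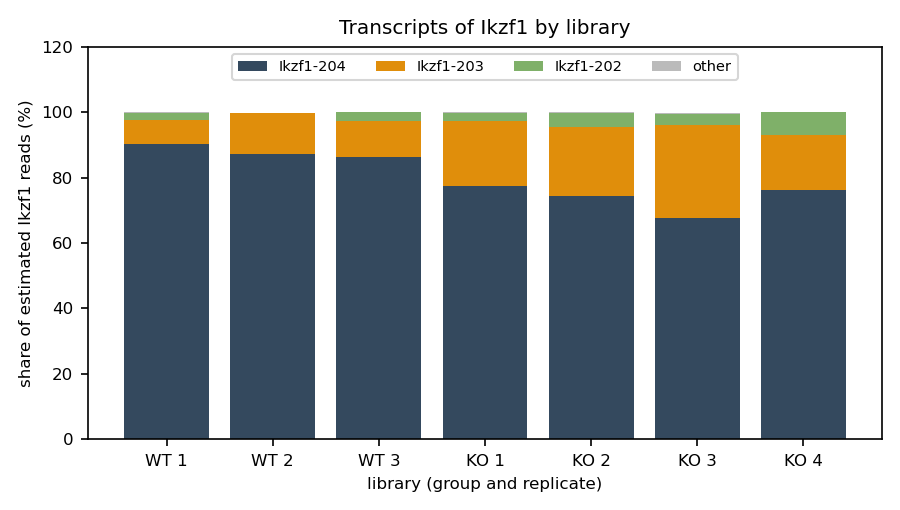
Share of the estimated Ikzf1 reads (y axis, percent) on each annotated transcript in each library (x axis), stacked by transcript. Ikzf1-204 takes 86.4% to 90.4% in the WT libraries and 67.7% to 77.4% in the libraries labelled KO, with Ikzf1-203 making up most of the rest.

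Among the receptors, Flt3 (ENSMUSG00000042817, chromosome 5, 147330741 to 147400489, minus strand) encodes the kinase receptor whose appearance on the surface marks the loss of self-renewal and the passage to lymphoid-primed progenitors. It was at 27.4, 28.2, 43.2 and 63.2 CPM under the KO label and at 25.2, 14.5 and 14.9 CPM under the WT label. The groups did not overlap, but KO replicates 1 and 2 lay close above WT replicate 1. The means were 40.5 ± 16.8 CPM (SD, n = 4) and 18.2 ± 6.07 CPM (SD, n = 3), with a log2 fold change of 1.15 (SE 0.333, 95% interval 0.42 to 1.89) that did not pass (edgeR adjusted p = 0.124). DESeq2 called it (1.13, adjusted p = 0.0198), the only 1 of 19 alternatives that did, and among the 5 libraries with the Y-linked pattern it was 0.73 (edgeR adjusted p = 0.301). Flt3-201 took 93.1% to 99.6% of the estimated reads in the KO group and 83.2% to 99.4% in WT, a difference of 4.06 points that did not separate the groups (two-sided exact permutation test, p = 0.514, adjusted over 3 genes p = 0.686) and that turned to -0.74 without WT replicate 2.

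Il7r (ENSMUSG00000003882, chromosome 15, 9505788 to 9530176, minus strand) encodes the alpha chain of the interleukin 7 receptor, which carries the survival signal of lymphoid progenitors. It had 33, 16, 92 and 5 reads under the KO label and 16, 1 and 2 reads under the WT label, or 1.29, 0.591, 3.36 and 0.135 CPM against 0.543, 0.0468 and 0.0862 CPM. KO replicate 3 was the highest, KO replicate 4 lay below WT replicate 1, and the groups overlapped. The log2 fold change of 2.49 (SE 1.12, 95% interval 0.01 to 4.97) did not pass (edgeR adjusted p = 0.338). It fell to 1.49 without KO replicate 3 and rose to 4.22 without WT replicate 1, neither of which passed (edgeR adjusted p of 0.188 to 0.611 over all omissions).

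Among the genes of antigen receptor recombination, Dntt (ENSMUSG00000025014, chromosome 19, 41029275 to 41059525, plus strand) encodes the polymerase that adds untemplated bases at V(D)J junctions, and it is a classical mark of early lymphoid progenitors. It had 21, 53, 33 and 230 reads under the KO label and 1, 1 and 15 reads under the WT label. In CPM these were 0.820, 1.96, 1.21 and 6.21 against 0.0340, 0.0468 and 0.647, so the groups did not overlap, with KO replicate 1 close above WT replicate 3. The log2 fold change was 3.4 (SE 1.08, 95% interval 1.01 to 5.78) and did not pass (edgeR adjusted p = 0.164). Nearly all reads fell on Dntt-202, of 2068 nt and beginning at 41029382, downstream of the window printed above, and 4.2 estimated reads in KO replicate 2 fell on the longer Dntt-201.

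The highest Dntt library of each group, KO replicate 4 and WT replicate 3, was the one without the Y-linked pattern, and the same pair was highest for Ighm. With this pattern as a covariate, Dntt was at 4.11 (edgeR adjusted p = 0.00719) and Ighm at 2.36 (edgeR adjusted p = 0.0409). That fit called 3 of the 7 genes higher, these and Satb1, against 1.48% of all tested genes. DESeq2 also called 3 higher, Satb1, Flt3 and Dntt (3.39, adjusted p = 0.0154), against 2.27% of all genes. The term for the pattern itself was 2.79 for Dntt and 1.69 for Ighm, higher where the pattern was absent, and neither passed (edgeR adjusted p = 0.227 each). Among the 5 libraries with the pattern Dntt was at 4.91 (edgeR adjusted p = 0.0373), in a fit that called 0.612% of all genes higher. Without WT replicate 3 it was at 5.84 and did not pass (edgeR adjusted p = 0.0578).

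Rag1 (ENSMUSG00000061311, chromosome 2, 101638282 to 101649501, minus strand) encodes the catalytic subunit of the V(D)J recombinase. It had 0 reads in all 4 libraries labelled KO and in WT replicates 1 and 2, and 6 reads, or 0.259 CPM, in WT replicate 3. A count of 0 allows up to 3 reads, or 0.081 to 0.117 CPM in the libraries labelled KO, in counting error only. Rag2, its partner subunit, had 68 reads over the libraries labelled KO and 13 over WT, 0.595 ± 0.345 CPM (SD, n = 4) against 0.178 ± 0.0696 CPM (SD, n = 3), and did not pass (log2 fold change 1.72, edgeR adjusted p = 0.297). Rag2 was chosen after its values were seen, and its passing the filter also rests mainly on the KO group.

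Along the B-cell path, Ighm (ENSMUSG00000076617, chromosome 12, 113418558 to 113422730, minus strand) is the constant region of immunoglobulin M, which early progenitors transcribe before any rearrangement. It had 85, 59, 97 and 230 reads under the KO label and 19, 4 and 53 under the WT label, or 3.32, 2.18, 3.55 and 6.21 CPM against 0.645, 0.187 and 2.29 CPM. KO replicate 2 lay just below WT replicate 3, so the groups overlapped by this pair. The log2 fold change of 1.87 (SE 0.722, 95% interval 0.28 to 3.47) did not pass (edgeR adjusted p = 0.266), and it was 3.13 without WT replicate 3 (edgeR adjusted p = 0.0748).

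Blnk (ENSMUSG00000061132, chromosome 19, 40928927 to 40994535, minus strand) encodes the adaptor that links the B-cell receptor to its downstream kinases. It had 36, 30, 36 and 40 reads under the KO label, and 73, 17 and 13 reads under the WT label. In CPM the libraries labelled KO lay within 1.08 to 1.40, between the WT libraries at 0.560, 0.796 and 2.48. The log2 fold change of -0.07 (SE 0.585, 95% interval -1.36 to 1.23, edgeR adjusted p = 0.966) turned to 0.84 without WT replicate 1 (edgeR adjusted p = 0.582). A transcript annotated with a retained intron, Blnk-203, took 39.4% to 80.7% of the estimated reads in the KO group and 37.5% to 76.5% in WT.

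Ly6d (ENSMUSG00000034634, chromosome 15, 74762056 to 74763620, minus strand) encodes a surface protein that divides common lymphoid progenitors into those with all lymphoid potentials and those committed to B cells. It had 14 reads, or 0.656 CPM, in WT replicate 2 and 0 reads in the other 6 libraries. The same library was the highest for 3 immunoglobulin and B-cell receptor genes. Igkc, the kappa light chain, was at 9.42 CPM there and at 0.302 to 0.645 CPM in the other 6 libraries. Cd79a, a subunit of the B-cell receptor chosen like Ighd after its values were seen, was at 1.83 CPM against 0 to 0.11, and Ighd, the delta heavy chain, at 1.64 CPM against 0. Ighm was lowest in this library, at 0.187 CPM. The part of these transcripts in the WT values was not tested.

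**Figure D3:**
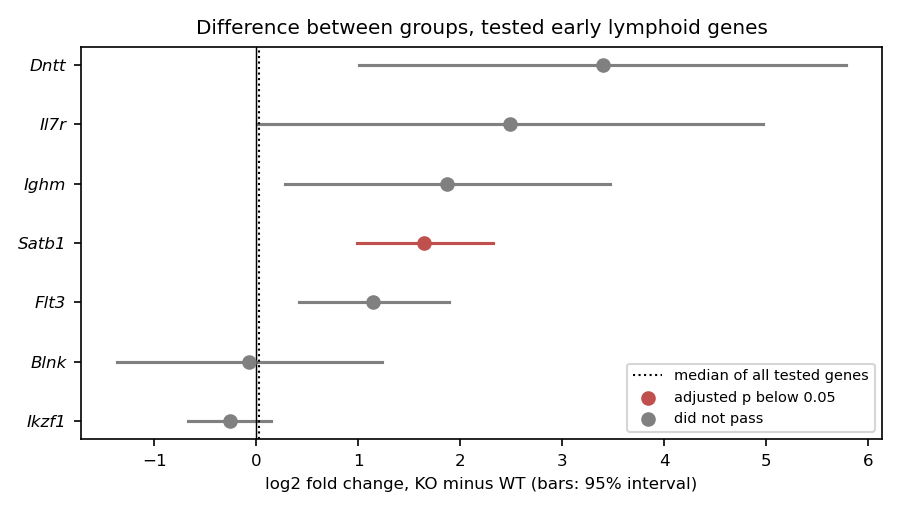
Log2 fold change, KO minus WT (x axis), of the 7 tested genes with the 95% interval of the edgeR fit, coloured where the adjusted p is below 0.05. Satb1 at 1.65 is the gene that passed, and the interval of Dntt, from 1.01 to 5.78, is among the widest.

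Levels between genes were compared per length, as TPM. Ikzf1 was the most abundant of the 9 in both groups, followed by Flt3 at 12.7 ± 6.61 TPM (SD, n = 4) in the KO group and 4.84 ± 1.89 TPM (SD, n = 3) in WT. Flt3 reached 21.9 TPM in KO replicate 4, within the 18 to 22.2 TPM range of Ikzf1 in that group, while in WT its highest library, at 6.95 TPM, lay below the 15.4 to 18.9 TPM of Ikzf1. Ighm and Satb1 came next and did not differ beyond their spread, at 2.97 ± 1.62 and 2.85 ± 0.625 TPM in the KO group and 0.706 ± 0.75 and 0.667 ± 0.318 TPM in WT. Dntt followed at 1.45 ± 1.57 TPM in the libraries labelled KO, with a range of 0.409 to 3.78 TPM that overlapped those of its neighbours in this order. Il7r (0.621 ± 0.604 TPM) and Blnk (0.46 ± 0.0798 TPM) overlapped there. In WT, Blnk at 0.447 ± 0.432 TPM lay above Dntt at 0.121 ± 0.179 TPM, with ranges that overlapped. Rag1 and Ly6d were above 0 in 1 WT library each, at 0.0378 and 0.964 TPM.

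The other lymphoid genes were grouped in lists that were also chosen with results of these data known. Of 136 such genes, 104 were tested, and 62 of these, or 59.6%, were above 0, against 52.7% of all tested genes. The test called 3 higher, or 2.88%, against 0.599% of all tested genes, and 1 lower, or 0.962%, against 1.66%. Across all tested genes the median log2 fold change was 0.03. Of the 24 tested lymphoid transcription factors 0 were called (4 at an unadjusted p below 0.05), with a median of 0.06. Id3, an inhibitor of E proteins, had the smallest p, with 90 reads over the libraries labelled KO and 4 over WT (log2 fold change 3.67, SE 1.06, edgeR adjusted p = 0.126). As for Il7r and Dntt, its passing the filter rests mainly on the KO group, so its direction is not independent of the filter. All 4 WT reads of Id3 were in replicate 3, without which it was at 7.42, and it passed in 3 of 18 alternatives, DESeq2 (adjusted p = 0.0321), limma voom (0.0354) and log2(TPM + 1) with limma (0.0321). Zbtb1, a factor needed for lymphocyte development, was at 85.6 ± 24.7 CPM (SD, n = 4) against 55.5 ± 1.21 CPM (SD, n = 3), and Ikzf2, an Ikaros relative, at 88.9 ± 17.9 against 64.0 ± 10.7 CPM, with edgeR adjusted p of 0.191 and 0.305. Pax5 and Pou2af1, factors of committed B cells, had 0 reads in all 7 libraries.

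Of the 24 tested receptors and signalling genes of lymphoid progenitors, 1 rose and 0 fell, with a median of 0.18. The gene was Cd53, a tetraspanin of leukocytes, at 56.4, 58.0, 140.4 and 117 CPM under the KO label and 17.1, 8.39 and 20.2 CPM under the WT label. Its groups lay far apart, with a log2 fold change of 2.61 (SE 0.409, edgeR adjusted p = 0.00673), and it passed in all 19 alternatives. Of the 13 genes of antigen receptor recombination and its joining, all of which were tested, 1 rose and 0 fell, with a median of 0.36. It was Atm, the kinase that answers DNA double-strand breaks, at 34.7 ± 1.54 CPM (SD, n = 4) against 20.3 ± 2.40 CPM (SD, n = 3), with an edgeR adjusted p of 0.0494 for a log2 fold change of 0.77. Atm passed in 5 of the 19 alternatives, and its call was lost in all but 1 of the 7 omissions of a library (edgeR adjusted p of 0.0392 to 0.163) and under RLE or upper quartile scaling (0.0532 and 0.063).

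**Figure D4:**
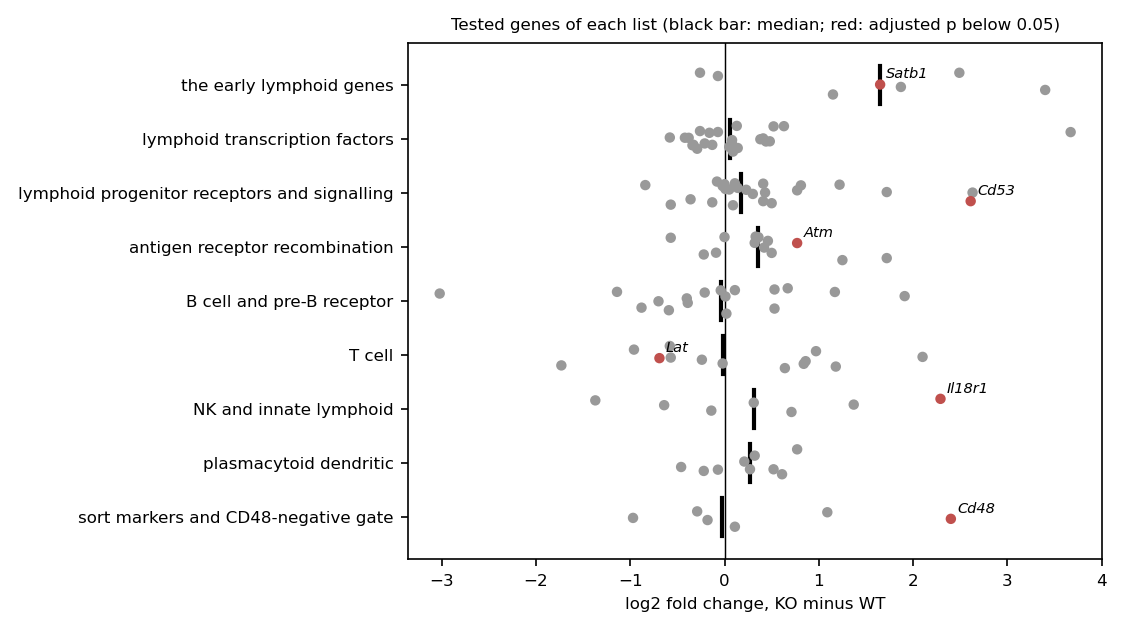
Log2 fold change, KO minus WT (x axis), of every tested gene of each list, with a black bar at the list's median and named red points where the edgeR adjusted p is below 0.05. The 7 tested early lymphoid genes have a median of 1.65, without Rag1 and Ly6d, which had reads in WT alone. The other lists have medians of -0.04 to 0.36, and 6 genes carry a name. Genes and lists were chosen with earlier results of these data known, so the medians do not test a contrast between them.

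Lists of mature lymphoid and related cells were read for RNA of other cells in the sort. A few genes made up most of each list's sum, so the sums do not measure such cells. Of 17 tested B-cell and pre-B receptor genes 0 were called (5 at an unadjusted p below 0.05), with a median of -0.04. The list summed to 929 to 1001 CPM in the KO group and 1051 to 1087 CPM in WT. Cd24a was the largest part, at 294 ± 9.12 CPM (SD, n = 4) against 291 ± 34.4 CPM (SD, n = 3). Cd74 was at 101 ± 51.5 against 222 ± 37.5 CPM and did not pass (log2 fold change -1.14, edgeR adjusted p = 0.272). Its libraries labelled KO were at 130.4, 123, 125 and 23.4 CPM, so replicate 4 alone pulled the KO mean below the rest. The WT libraries were at 179, 242 and 246 CPM. Of the list's 24 genes, the surrogate light chain Igll1, Vpreb2 and the kinase Blk had 0 reads in all 7 libraries and the rest had reads. Vpreb1, chosen after its values were seen, had 304 reads over the libraries labelled KO and 119 over WT (edgeR adjusted p = 0.479). Of the tested genes 8 were above 0 and 9 below. The smallest p of this list belonged to Cd37 (log2 fold change 0.53, edgeR adjusted p = 0.135), Igkc (-3.02, 0.177) and Pik3ap1 (1.91, 0.18). Igkc was at -0.20 without WT replicate 2 and -0.56 with limma voom, and Pik3ap1 at 1.18 without KO replicate 4 and 1.06 with the replicate block. DESeq2 called Cd37 and Pik3ap1 (adjusted p of 0.0363 and 0.033), and the fit with the Y-linked covariate called Cd37 (0.0481). Of 13 tested T-cell genes Lat, an adaptor that platelets also use, fell to 105 ± 9.89 CPM (SD, n = 4) from 169.8 ± 20.6 CPM (SD, n = 3), with a log2 fold change of -0.69 (edgeR adjusted p = 0.0449) that passed in 0 of the 7 omissions of a library (0.0537 to 0.171). That list had a median of -0.02 and sums of 131 to 153 CPM against 175 to 209 CPM, with Lat making up most of both. Of its 20 genes, Zap70 had 0 reads and the rest had reads, and of the tested genes 6 were above 0 and 7 below.

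Of 7 tested genes of natural killer and innate lymphoid cells, Il18r1, an interleukin 18 receptor chain, rose. It was at 6.09, 6.73, 5.63 and 6.75 CPM under the KO label and at 1.63, 1.08 and 1.12 CPM under the WT label. The groups differed by 2.29 on the log2 scale (SE 0.346, edgeR adjusted p = 0.00557), and the gene passed in all 19 alternatives. The list's median was 0.31 and its sums were 199 to 369.5 CPM against 146 to 239 CPM. Nkg7 made up most of these sums, at 274 ± 75 CPM (SD, n = 4) against 168 ± 41.8 CPM (SD, n = 3), and did not pass (edgeR adjusted p = 0.236). Of the list's 14 genes, Klrd1, Ncr1, Gzma and Tbx21 had 0 reads and the rest had reads. Klrb1c, chosen after its values were seen, was at 8.55 ± 1.66 against 6.91 ± 0.408 CPM (edgeR adjusted p = 0.621). Of the tested genes 4 were above 0 and 3 below. Of 9 tested plasmacytoid dendritic genes 0 were called (0 at an unadjusted p below 0.05), with a median of 0.27 and sums of 156 to 219 CPM against 171 to 217 CPM. Ccr9 (0.77), Bst2 (0.21) and Pacsin1 (0.61) had the smallest p there, with edgeR adjusted p of 0.521, 0.558 and 0.721, and Klk1 and Cd209d had 0 reads. Ccr9, Tcf4, Irf8 and Spib of this list stand in other lists too.

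Of the 4 sort antigens with a gene in the list, Cd48 rose, and Kit, Ly6a (Sca-1) and Slamf1 (CD150) did not pass. Cd48, which encodes the antigen the sort selects against and which marks multipotent progenitors, was at 105, 126, 142 and 129.7 CPM under the KO label and 25.2, 14.0 and 32.3 CPM under the WT label. It rose by 2.40 on the log2 scale (SE 0.269, edgeR adjusted p = 0.000804) and passed in all 19 alternatives. Cd34, higher in progenitors than in LT-HSCs, was at 1.09 (edgeR adjusted p = 0.0715), and Procr, the stem cell marker EPCR, at -0.97 (edgeR adjusted p = 0.068), and both were chosen after their values were seen. The 6 genes of this list summed to 896 to 1142 CPM in the KO group and 779 to 859.9 CPM in WT, with a median of -0.03, and all had reads. The part of these differences in the lymphoid genes was not tested.

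The genes most like the leading ones were sought by the root mean square difference of their log2 CPM profiles over the 7 libraries, each centred on its own mean. For Satb1 these were Zscan18 (0.17), Olfr248 (0.182), Lat2 (0.245), Slc13a1 (0.245) and Nos1 (0.263). Zscan18 was at 8.19 CPM on average in the KO group and 2.95 CPM in WT, and Lat2, an adaptor of B cells and myeloid cells, at 23.4 and 7.62 CPM. For Flt3 they were Noxo1 (0.115), Slc31a2 (0.161), Galnt6 (0.174), Jund (0.209) and Fgf3 (0.229). For Dntt they included Xpnpep2 (0.647), Gprin3 (0.691), Klf2 (0.697) and Pcdhgb7 (0.725). The difference was 0.478 between Satb1 and Flt3, 1.43 between Satb1 and Dntt, and 1.53 between Flt3 and Dntt.

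Position on the chromosome was not used to choose the genes. Blnk and Dntt lie next to each other on chromosome 19, with starts 34.7 kb apart on opposite strands, and had log2 fold changes of -0.07 and 3.4. Zfp518a, within 250 kb of both, was at 42.3 ± 6.04 CPM (SD, n = 4) and 40.3 ± 2.11 CPM (SD, n = 3), a log2 fold change of 0.07 (edgeR adjusted p = 0.873). Satb1 had 0 quantified genes with a start within 250 kb of its own. Near Rag1, Prr5l, 233.5 kb away, fell to 2.95 ± 1.48 CPM (SD, n = 4) from 12.4 ± 0.48 CPM (SD, n = 3), with a log2 fold change of -2.08 (edgeR adjusted p = 0.0455). It was the 1 called of 26 distinct tested neighbours within 250 kb, against 2.26% of all tested genes, and it was not followed in the alternatives. The plot of 4 of the genes under each processing choice shows how far these values moved.

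**Figure D5:**
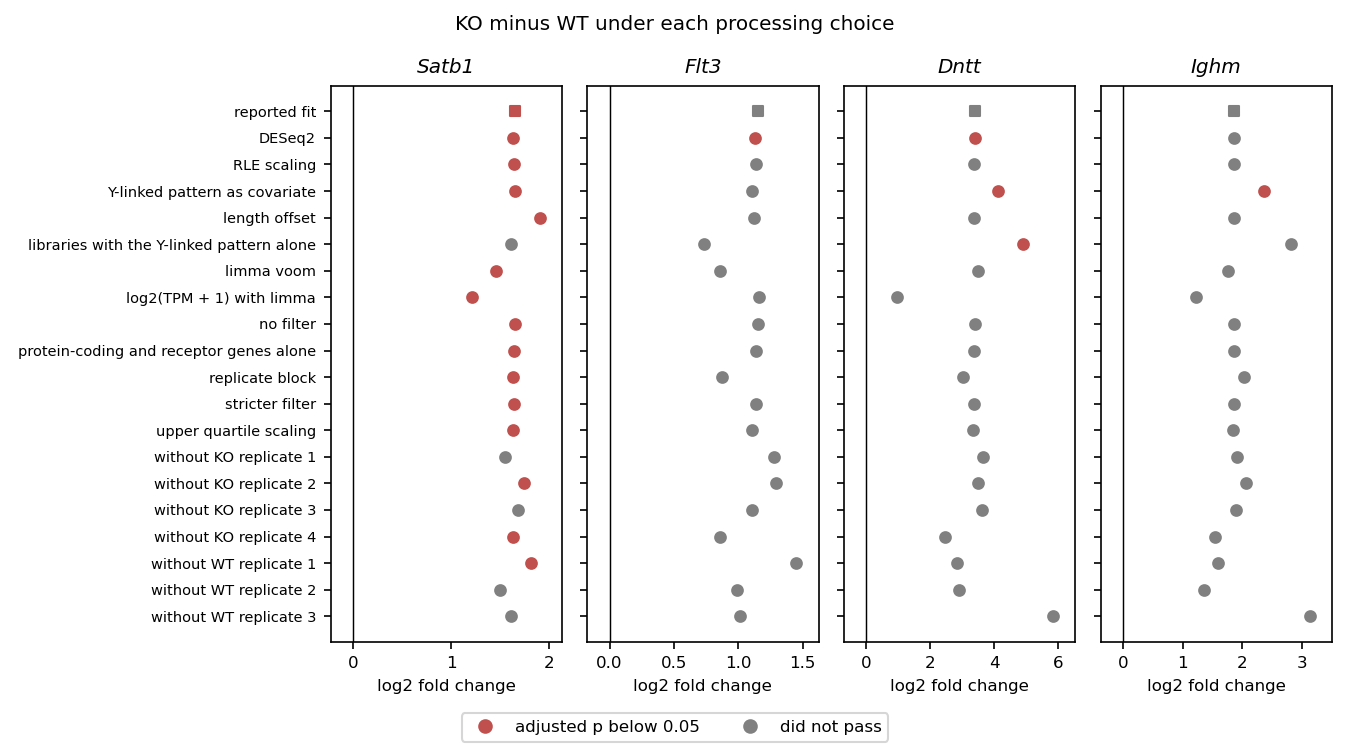
Log2 fold change, KO minus WT (x axes, each with its own scale), of Satb1, Flt3, Dntt and Ighm in the reported fit (square) and in 19 alternatives (circles), red where the adjusted p is below 0.05. All points lie above 0, and Satb1 passes in 14 of the 19 alternatives, Dntt in 3, and Flt3 and Ighm in 1 each.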

How the data were processed

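RNA-seq was made from sorted LT-HSCs with a low-input SMART-Seq v4 kit, per the labels' protocols. Reads went through cutadapt, Salmon 0.11.2 and the mm10 build, per the submitters' processing notes. Which transcripts were indexed is not stated there. The deposited files, made by the authors, give estimated counts, TPM and effective lengths per transcript, 1 file per library. Transcripts were joined without version to GENCODE M21 (111787 of 112092 matched, the rest holding 0.084% to 0.123% of reads), summed to genes and rounded. CPM scale gene counts by the TMM-adjusted library size. Groups were compared in R 4.3.3 by edgeR 4.0.16 and its quasi-likelihood test (TMM, filterByExpr, Benjamini-Hochberg over 14695 genes). SE was taken from the log2 fold change and the F statistic. For this comparison, counts of 14357 genes were simulated, and the test recovered 35% of 100 genes changed 2-fold and 83% of 100 changed 4-fold, and called 7 of 14157 unchanged genes. Transcript shares used exact permutation over the 7 libraries, with p doubling the smaller tail. Alternatives used DESeq2 1.42.0 and limma 3.58.1 (voom, and log2(TPM + 1)), other scalings and filters, a length offset, a replicate block, the Y-linked pattern (present above a sum of 100 CPM) and each library left out. Intervals and floors cover counting error or library spread only, since reads have no molecular identifiers.

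The genes and lists were chosen with earlier results of these data known. The text names the 9 genes, B4galt1, each listed gene that passed or, in lists with 0 calls, the 3 of smallest p, called or shared neighbours within 250 kb, and the 5 protein-coding genes nearest in profile to Satb1, Flt3 and Dntt. For Dntt, 1 of these is not reported here. Genes with 0 reads, and Nkg7, Cd24a and Cd74 for their part in list sums, were also picked by their values. Kit, Ly6a and Slamf1 are named as sort antigens, and Tcf4, Irf8 and Spib as shared between lists. Any remaining genes are marked in the text as picked once their values were known.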

Additional observations from a re-analysis of the deposited data

Results flagged for a closer look

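In the KO group 40 quantities were examined, and in 3 of them 1 library stood apart, with a gap to its nearest neighbour that filled most of the range. Chance flags about 1 in 20 such groups. Zbtb1 reached 122 CPM in KO replicate 4, while the other 3 held 70.9 to 77.3 CPM. B4galt1 reached 19.3 CPM in KO replicate 1, while the other 3 held 14.6 to 14.9 CPM. Rag2 reached 1.11 CPM in KO replicate 2, while the other 3 held 0.39 to 0.475 CPM. Of the 9 early lymphoid genes, 0 were far from the rest by this measure, though Dntt and Flt3 were highest in KO replicate 4. Groups of 3 were not examined.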

How the results depend on the processing

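Satb1 kept its direction in all 19 alternatives (1.21 to 1.90) and passed in 14; it lost the call among the libraries with the Y-linked pattern alone (1.61) and without KO replicates 1 or 3 or WT replicates 2 or 3. Flt3 gained a call with DESeq2 (1.13), Dntt with DESeq2 (3.39), the Y-linked covariate (4.11) and the libraries with that pattern alone (4.91), and Ighm with the covariate (2.36). Il7r was called in 0 alternatives (edgeR, DESeq2 or limma). Signs turned on the log2(TPM + 1) scale for Ikzf1 (0.19), Blnk (0.05) and B4galt1 (0.20), and without WT replicate 2 for B4galt1 (0.04), the Satb1 transcript share (-6.78) and the Flt3 transcript share (-0.74). Blnk also turned with the replicate block (0.27) and without WT replicate 1 (0.84). The Ikzf1 transcript share (-14.08) had an unadjusted p below 0.05 when exact permutation used the absolute difference, added after seeing the data. The causes were not tested. With 1 library left out, log2 fold changes ran from 1.5 to 1.81 for Satb1, 0.86 to 1.45 for Flt3, 2.45 to 5.84 for Dntt, 1.36 to 3.13 for Ighm, 1.49 to 4.22 for Il7r, -0.40 to -0.14 for Ikzf1, -0.47 to 0.04 for B4galt1 and -0.44 to 0.84 for Blnk, and transcript shares from -15.25 to -12.02 for Ikzf1, -6.78 to 28.07 for Satb1 and -0.74 to 7.36 for Flt3.

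The 9 genes called higher numbered 3 with DESeq2 and 3 with the covariate, and 0 to 1 with a library left out; 0 were called lower throughout. Over all genes, 88 were called higher and 244 lower. Higher genes numbered 379 with DESeq2, 218 with the covariate, 213 with the length offset, 269 with limma voom, 314 with log2(TPM + 1) and 58 with the replicate block, and 30 to 130 with a library left out. Lower genes numbered 567, 396 and 439 with DESeq2, the covariate and limma voom, and 157 to 279 with a library left out. The share of higher calls, 26.5%, was 45.9% with the length offset, 61% on the TPM scale, 40.1% with DESeq2 and 38% with limma voom, and with a library left out it ran from 15.2% (without KO replicate 3) to 31.8% (without KO replicate 4), with 17.1% without WT replicate 2. The other listed genes called higher, 4, numbered 11, 10, 10 and 7 with DESeq2, the covariate, limma voom and log2(TPM + 1), and 3 to 6 with a library left out. Those called lower, 1, numbered 2 with DESeq2, the covariate, the length offset, limma voom and no filter, 0 with log2(TPM + 1) and the replicate block, and 0 to 1 with a library left out.

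Same-numbered libraries did not deviate together (correlations of -0.053, -0.12 and -0.039). With so few libraries such values cannot decide whether the numbers pair them, and the labels name no pairing. With the replicate block Satb1 was at 1.63, Flt3 at 0.87, Dntt at 3.03, Ighm at 2.03, Il7r at 3.11 and Ikzf1 at -0.16, and 1 of the 9 genes was called. A stricter filter gave no Il7r value, and Rag1 and Ly6d were tested only without a filter. Depth limits Rag1, Ly6d, Il7r, Ighm, Blnk and Dntt, which had 20 reads or fewer in at least 1 library.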
